A study of Oryza sativa with 20 samples.

Results

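Root transcriptomes of the rice cultivars Bala and Sarali were compared across all measured genes. The comparison used the 4 libraries labelled Bala and the 4 labelled Sarali, which are 8 of the 20 root libraries of a study of 5 Oryza sativa cultivars. Bala is an upland indica cultivar. Sarali was taken as belonging to the Sri Lankan Indica II cultivars named in the title of the study, which does not list them. The 2 groups differed in genotype alone as far as the labels go: both are root tissue, no treatment is named for either, and the sources used here give neither the age of the plants nor the growth medium. Replicates are numbered libraries of a cultivar, and nothing states whether they came from separate plants. The p-values of single genes come from a fit of all 20 libraries of the 5 cultivars. They measure the spread between numbered libraries of a cultivar, which may be technical.

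Roots take up water and ions through membrane proteins that sit in defined cell layers. Water moves through aquaporins, silicon through a channel and an exporter on opposite sides of the same cells, and nitrogen, iron, potassium and phosphate through families of dedicated carriers. Root growth depends on wall loosening by expansins, on synthesis of cellulose and related glucans and on auxin, and cultivars of rice also differ in genes that are present in some genomes and missing or altered in others.

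Total counts were similar, between 23444550 and 28983418 in Bala and between 27118973 and 29613310 in Sarali. Ribosomal RNA took 70.6%, 62.8%, 75.0% and 84.6% of the counts in Bala replicates 1 to 4, and 30.9%, 64.5%, 62.2% and 54.0% in Sarali. The mean was 73.3% ± 9.12 in Bala and 52.9% ± 15.4 in Sarali (SD, n = 4 each), a difference of 20.4 percentage points that did not pass the test (exact permutation test of 70 arrangements, two-sided, p = 0.0571, where the smallest possible p is 0.0286). Counts in all other genes numbered 3813615 to 10791187 in Bala and 10185142 to 19335722 in Sarali, so values in Bala rest on fewer reads. On a principal component analysis of the 8 libraries the first component, with 55.5% of the variance, placed all Bala libraries on one side and all Sarali libraries on the other.

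Of 21225 genes tested, 2422 (11.4%) differed between the cultivars at an adjusted p below 0.05 (edgeR quasi-likelihood test, Benjamini-Hochberg adjustment). Of these, 1239 were higher in Bala (5.84% of all tested) and 1183 were lower (5.57%), and the median log2 fold change of all genes was 0. At least a 2-fold difference was found in 914 of the higher and 779 of the lower genes, and at least an 8-fold difference in 347 and 340. An unadjusted p below 0.05 was found in 5363 of the 21225 genes, the background for such counts in the lists below. The 4 Bala and 4 Sarali values did not overlap in 3327 genes (15.7% of those tested; Bala higher in 7.26% and lower in 8.41%), which included 2073 of the called genes. All log2 fold changes are Bala minus Sarali, and levels are CPM, the count of a gene relative to its library total after TMM scaling, which compares a gene between libraries but not different genes, since length is not taken into account. The 2 pools named in the file headers each held 2 libraries of either cultivar. Within pool 1, 810 genes were called, 768 of them among the 2422. Within pool 2, 1213 were called, 956 of them among the 2422. Of the 2422 called genes 99.7% had the same direction in both pools. They were called from both pools together, which favours such agreement. A fit that included the ribosomal RNA share called 1643 genes, and 2096 with all libraries thinned to equal depth without ribosomal RNA. A fit of the 8 libraries alone called 1709 genes, of which 1555 were among the 2422.

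**Figure D1:**
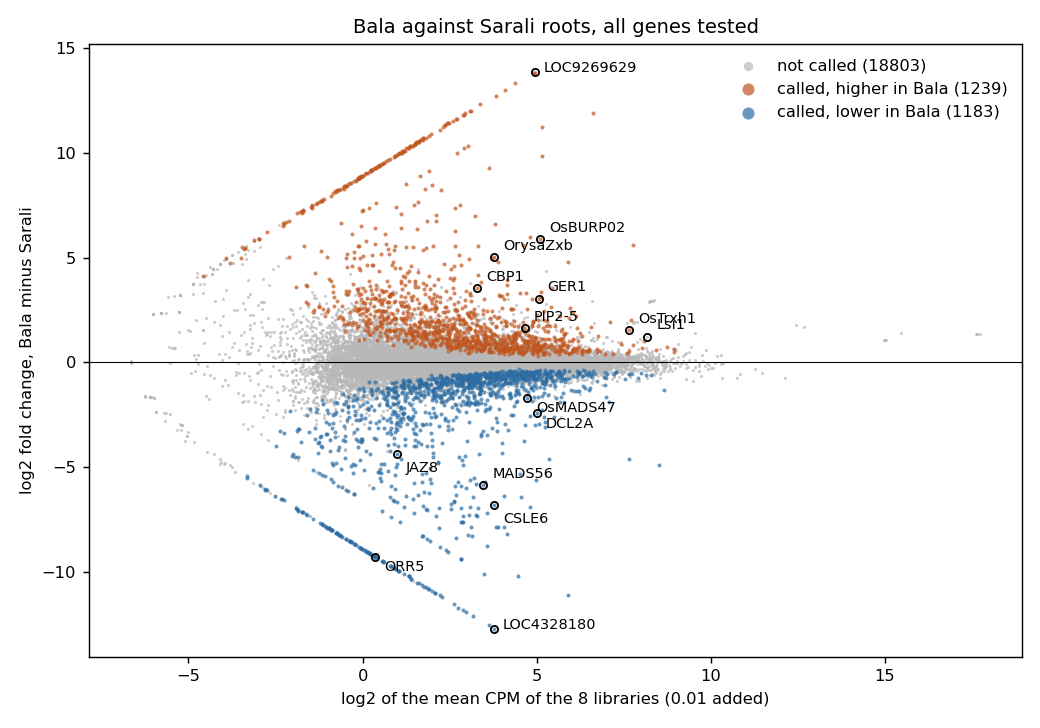
Log2 fold change of each gene tested (vertical axis, Bala minus Sarali) against the log2 of its mean CPM over the 8 libraries (horizontal axis). The 1239 genes called higher in Bala are orange, the 1183 called lower are blue and the others are grey; points along the straight outer edges are genes with 0 counts in all libraries of a cultivar, whose fitted fold change depends on the prior count.

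OsBURP02, OrysaZxb, CBP1 and EME1 were among the named genes called higher in Bala. OsBURP02 (LOC_Os05g12640, chromosome 5) encodes a protein with a BURP domain, a family found in plants alone. It stood at 37.3, 28.9, 138 and 62.6 CPM in Bala replicates 1 to 4 and at 0.436, 2.19, 0.957 and 1.17 CPM in Sarali. No Bala library came near any Sarali library, and replicate 3 was the highest of the Bala libraries. The log2 fold change was 5.86 ± 0.86 (SE, adjusted p = 9.37e-05), and 5.21 without Bala replicate 3. OrysaZxb (LOC_Os03g41438, chromosome 3) was at 35.7, 22.2, 14.7 and 33.4 CPM in Bala and at 0.976, 1.12, 1.12 and 0.0733 CPM in Sarali, a log2 difference of 5.01 ± 0.61 (adjusted p = 1.03e-05). CBP1 (LOC_Os12g15470, chromosome 12) had 23.1, 12.2, 12.6 and 24.6 CPM in Bala against 1.54, 2.28, 1.08 and 1.25 CPM in Sarali (3.56 ± 0.3, adjusted p = 9.06e-08). EME1 (LOC_Os04g55500, chromosome 4) averaged 18.5 ± 2.44 CPM in Bala and 3.28 ± 1.29 CPM in Sarali (2.50 on the log2 scale, adjusted p = 1.36e-05). For all 4 genes the groups were apart in every library.

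SDH3-2, a subunit that anchors succinate dehydrogenase in the mitochondrial membrane, had 28.7, 23.9, 25.6 and 23.4 CPM in Bala and 12.3, 11.5, 11.9 and 9.6 CPM in Sarali. The lowest Bala library was well above the highest Sarali library, and the log2 fold change was 1.16 ± 0.15 (adjusted p = 1.63e-05). PBC1, a beta subunit of the proteasome, averaged 70.1 ± 5.39 CPM in Bala and 39.2 ± 3.22 CPM in Sarali (adjusted p = 0.000748). IRL3, a leucine-rich repeat protein, averaged 38.2 ± 5.95 against 15.5 ± 2.08 CPM (adjusted p = 0.000887). IRL1 of the same family went the other way, with 4.05 ± 0.828 CPM in Bala and 19.3 ± 3.85 CPM in Sarali (log2 fold change −2.24, adjusted p = 1.08e-06).

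Among genes lower in Bala, CSLE6 and MADS56 were close to 0 there. CSLE6 (LOC_Os09g30130, chromosome 9), a cellulose synthase-like gene, had 0.13, 0.564, 0 and 0 CPM in Bala and 27.3, 19.1, 32.8 and 28.8 CPM in Sarali. Both Bala libraries at 0 were replicates 3 and 4, the shallowest once ribosomal RNA is set aside. Its log2 fold change was −6.81 ± 0.62 (adjusted p = 2.03e-07), and −8.83 without Bala replicate 2. OsC3H49 (LOC_Os07g18050, chromosome 7), a CCCH zinc finger gene, showed a narrow spread, with 13.4, 13.1, 12.4 and 12.7 CPM in Bala and 46.2, 44.2, 42 and 50.6 CPM in Sarali. Every Sarali library was over 3 times any Bala library, with a log2 fold change of −1.82 ± 0.13 (adjusted p = 1.18e-08). APG8D, one of the ubiquitin-like ATG8 proteins that coat autophagosomes, had 0.713, 0.607, 1.11 and 2.44 CPM in Bala and 15, 17.9, 12.2 and 13.8 CPM in Sarali (−3.73 ± 0.69, adjusted p = 0.000977). The plastid transcription gene wsl3, known from its white-striped leaf mutant, averaged 2.81 ± 0.845 CPM in Bala and 11.3 ± 1.07 CPM in Sarali (−2.03, adjusted p = 4.91e-06). RLA1, an AP2-type transcription factor gene also called SMOS1 that acts in organ size and brassinosteroid response, averaged 19.4 ± 7.37 against 54.1 ± 12.1 CPM (−1.47, adjusted p = 7.5e-05). CYP714C2, of a cytochrome P450 family that oxidises gibberellins, averaged 3.94 ± 1 against 12.4 ± 1.81 CPM (−1.64, adjusted p = 0.000181), and PPT2, a plastid phosphoenolpyruvate translocator, 20.5 ± 2.89 against 41.3 ± 7.01 CPM (−1.01, adjusted p = 0.000123). In each of these genes no Bala library reached the lowest Sarali library.

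**Figure D2:**
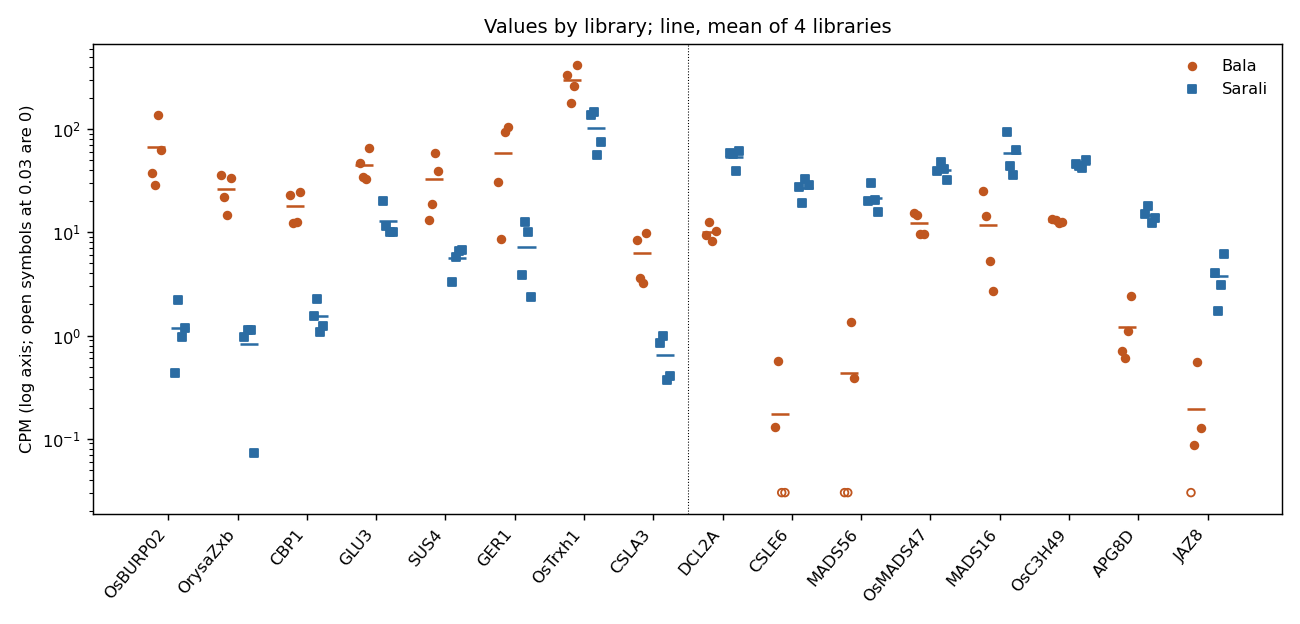
CPM of 16 named genes in each library on a log axis, Bala as orange circles and Sarali as blue squares, with a line at the mean of 4 libraries and open symbols for a value of 0. The 8 genes left of the dotted line were called higher in Bala and the 8 on the right lower; of the 16, only GER1 has Bala and Sarali libraries that overlap.

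Of 31 expansins, which loosen the wall of growing cells, 7 were called higher in Bala, 0 were lower and 24 did not pass (22.6% called higher, against 5.84% of all genes), with a median log2 fold change of 1.02 over the list against 0 over all genes. DESeq2 called 13 higher and 0 lower, and at an unadjusted p below 0.05 there were 14. EXPB4, a beta expansin, was at 38.5, 22.7, 44.2 and 48.5 CPM in Bala and 14.3, 13.1, 16.2 and 20.4 CPM in Sarali. Its lowest Bala library, replicate 2, lay just above the highest Sarali library (log2 fold change 1.26 ± 0.25, adjusted p = 0.00221). EXPB11 had 17.2, 5.51, 3.49 and 18 CPM in Bala and 2.57, 2.14, 2.83 and 3.37 CPM in Sarali, with Bala replicates 2 and 3 close to the Sarali range (2.00 ± 0.41, adjusted p = 0.00282). The alpha expansin EXPA1 averaged 4.21 ± 1.05 CPM in Bala and 0.458 ± 0.496 in Sarali (3.10 ± 0.77, adjusted p = 0.0118, and 4.24 without Sarali replicate 1). These 3 calls held whichever single library was omitted, but the number of expansins called was 3 without Bala replicate 1 and 4 without Sarali replicate 4. EXPB4 and EXPA1 did not pass without Bala replicates 3 and 4 together (adjusted p = 0.0711 and 0.077). Single expansins can share reads with near-identical relatives, so their separate values are uncertain.

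Of 45 cellulose synthases and relatives, 5 were called higher and 2 lower in Bala (15.6%, against 11.4% of all genes). Their median log2 fold change was 0.03. CSLA3 and CSLA1 belong to the group that makes mannan chains. CSLA3 had 8.36, 3.64, 3.25 and 9.88 CPM in Bala and 0.847, 0.979, 0.374 and 0.403 CPM in Sarali, at least a 3-fold gap between the nearest libraries (3.25 ± 0.51, adjusted p = 0.000198). CSLA1 averaged 55.0 ± 6.61 against 30.2 ± 4.24 CPM (0.87, adjusted p = 0.000534). BC1L9 is not a cellulose synthase but a COBRA-like gene of the family of BRITTLE CULM1. It averaged 13.9 ± 7.47 against 3.22 ± 1.78 CPM (2.10, adjusted p = 0.00384). With CSLE6 on the lower side, 4 of the 7 calls held without any single library; 3 of the 5 higher calls were left without Bala replicate 4, and 1 of the 2 lower without Bala replicate 1 or 4 or Sarali replicate 1 or 4. Outside that list, GLU3, an endo-1,4-beta-glucanase known from a short-root mutant of rice, had 46.8, 34.5, 32.7 and 65.6 CPM in Bala and 20.3, 11.5, 10 and 10.1 CPM in Sarali. All Bala libraries were above the highest Sarali library, which was replicate 1 (1.78 ± 0.24, adjusted p = 3.1e-05). MAN2, an endo-mannanase, averaged 32.5 ± 8.5 against 17.6 ± 1.34 CPM (0.88, adjusted p = 0.000711).

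Auxin genes were called in both directions, with 7 of 66 higher in Bala, 2 lower and a median log2 fold change of −0.03. The share called, 13.6%, was near the 11.4% of all genes. Aux/IAA proteins repress auxin response until auxin leads to their degradation. IAA13 had 145, 145, 104 and 216 CPM in Bala and 81.3, 59.7, 66.6 and 48.5 CPM in Sarali (1.25 ± 0.3, adjusted p = 0.0096), a call lost once the ribosomal RNA share entered as covariate (0.0912) or Bala replicates 3 and 4 were left out (0.0503). IAA30 averaged 75.1 ± 14.6 against 41.6 ± 2.92 CPM (0.85, adjusted p = 0.00349, and 0.0929 without Bala replicates 3 and 4). OsGH3-7, of the enzymes that join auxin or jasmonate to amino acids, had 6.74, 4.9, 6.42 and 4.62 CPM in Bala and 1.85, 1.54, 1.54 and 1.65 CPM in Sarali, with little spread within either group (1.78 ± 0.24, adjusted p = 3.93e-05). These 3 calls held in each fit without a single library, while the number higher was 4 without Bala replicate 4 or Sarali replicate 1 or 4. The number lower was 4 without Bala replicate 2, 1 without Bala replicate 3 or 4 or Sarali replicate 1, and 0 without Bala replicate 1 or Sarali replicate 4.

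Genes of other hormones included single members with large differences. ORR5, a type-A response regulator that is switched on by cytokinin and dampens its response, had 0 counts in all 4 Bala libraries and 3.18, 2.66, 2.04 and 2.35 CPM in Sarali, at least 50.2-fold lower in Bala (the floor is 3 counts over the group; adjusted p = 0.00314). It was 1 of 2 genes lower in Bala, and 1 was higher, in a list of 32 genes of cytokinin and strigolactone. Of this list 9.38% were called, against 11.4% of all genes. The number higher was 4 without Bala replicate 2, 3 without Sarali replicate 2, 2 without Bala replicate 1 or 3 and 0 without Bala replicate 4 or Sarali replicate 1; the number lower was 1 without Bala replicate 3 or Sarali replicate 1. JAZ8, a repressor of jasmonate response, had 0, 0.0867, 0.555 and 0.128 CPM in Bala and 4.08, 1.72, 3.08 and 6.16 CPM in Sarali. Its groups were apart (−4.38 ± 0.64, adjusted p = 9.29e-05), and the log2 fold change was −5.78 without Bala replicate 3. It was 1 of 2 jasmonate genes called of 30 (6.67%, against 11.4% of all genes), both lower in Bala. Just 1 was lower when any single Bala library, or Sarali replicate 1 or 4, was left out. Without Bala replicate 2, 2 were higher, and without Sarali replicate 1, 1 was. Of 55 PP2C protein phosphatases, some of which switch off abscisic acid signalling, 4 were lower in Bala and 1 higher. The share called, 9.09%, was below the 11.4% of all genes. OsPP2C05 averaged 0.577 ± 0.106 CPM in Bala and 3.24 ± 0.765 CPM in Sarali (−2.46 ± 0.41, adjusted p = 0.000419). OsPP2C18 averaged 0.296 ± 0.348 against 2.31 ± 0.367 CPM (−2.90, adjusted p = 0.0005, and −3.81 without Bala replicate 3). OsPP2C16 averaged 0.478 ± 0.146 against 3.51 ± 1.01 CPM (−2.92, adjusted p = 5.34e-05), but its counts in the 8 libraries lay within 10% of those of the unnamed gene LOC4329877, so the reads of the pair cannot be told apart. Without Bala replicate 2 the number of PP2C genes lower was 7 and that higher 3. The number higher was 2 without Sarali replicate 2 and 0 without Bala replicate 3 or 4 or Sarali replicate 3 or 4.

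MADS-box transcription factors had the highest share of called genes among lists of at least 10 members, 8 of 15 (53.3%, all genes 11.4%). Of these, 4 were higher and 4 lower. MADS50 and MADS56 are related genes known for opposing roles in flowering time under long days, and here they differed in opposite directions. MADS56 (LOC_Os10g39130, chromosome 10) had 0, 0, 1.35 and 0.385 CPM in Bala and 20.3, 29.8, 20.5 and 15.6 CPM in Sarali. No Bala library came within 10-fold of a Sarali library. The log2 fold change was −5.84 ± 1.11 (adjusted p = 0.00138), and −5.23 and −8.22 without Bala replicates 2 and 3. MADS50 had 35.1, 36.4, 20.8 and 32.1 CPM in Bala and 21.7, 17.2, 14.2 and 21.5 CPM in Sarali, with Bala replicate 3 inside the Sarali range (0.74 ± 0.17, adjusted p = 0.00752, and 0.0533 in a fit of the 8 libraries alone). OsMADS47, a repressor in brassinosteroid response, had 15.4, 14.6, 9.75 and 9.75 CPM in Bala and 39.3, 48.5, 40.9 and 31.9 CPM in Sarali (−1.69 ± 0.16, adjusted p = 5.21e-07). MADS16, known as a floral organ gene, had 25.3, 14.4, 5.23 and 2.69 CPM in Bala and 93.4, 43.9, 35.8 and 62.2 CPM in Sarali, a wide spread with no overlap (−2.28 ± 0.48, adjusted p = 0.00321, and −2.93 without Bala replicate 1). MADS30 averaged 2.38 ± 0.428 against 6.78 ± 1.63 CPM (−1.53, adjusted p = 7.76e-05). All 4 lower calls and that of MADS50 held without any single library. The number higher was 2 without Bala replicate 1 or 4 or Sarali replicate 1, 3 or 4, and 1 without Sarali replicate 2. Of 35 homeobox genes 3 were lower and 0 higher in Bala (8.57% called, against 11.4% of all genes). By DESeq2 5 were lower and 1 was higher, and 13 passed an unadjusted p of 0.05 in the edgeR fit. HOS9 averaged 24.6 ± 9.39 against 51.2 ± 13.6 CPM (−1.05, adjusted p = 0.0113), a call lost once the ribosomal RNA share entered as covariate (0.0625) or Bala replicates 3 and 4 were left out (0.132). The number of homeobox genes lower was 5 without Bala replicate 2 and 1 without Bala replicate 4 or Sarali replicate 1, 2 or 4, and 1 was higher without Bala replicate 1.

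Of 22 genes of RNA silencing 4 were called, 3 of them lower in Bala (18.2% called, against 11.4% of all genes). DCL2A (LOC_Os03g38740, chromosome 3), a Dicer-like enzyme that cuts double-stranded RNA into small interfering RNAs, had 9.34, 12.6, 8.16 and 10.3 CPM in Bala and 58.5, 57, 39.3 and 61.3 CPM in Sarali. Every Sarali library was over 3 times the highest Bala library, and the log2 fold change of −2.42 ± 0.19 had an adjusted p of 3.69e-08. AGO4B, an Argonaute of the kind that guides DNA methylation, had 40.3, 34.3, 32.9 and 47.1 CPM in Bala and 59.5, 75.1, 92.6 and 63.3 CPM in Sarali (−0.91 ± 0.17, adjusted p = 0.000974). SGS3, which stabilises RNA templates for the synthesis of double strands, went the other way with 42.6 ± 5.66 against 23.3 ± 5.6 CPM (0.87, adjusted p = 0.00138). The calls of DCL2A, AGO4B and SGS3 held without any single library, while the other lower call did not hold in all of these fits. Without Bala replicate 3 another gene was called higher.

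Of 20 aquaporins measured, 0 were called in either direction, against 11.4% of all genes. At an unadjusted p below 0.05 there were 2, DESeq2 called 0, and the median log2 fold change was 0.06. Without Sarali replicate 2, 1 aquaporin was called higher in Bala, and without Bala replicate 2, 1 was called lower. The channels with an unadjusted p below 0.05 were Lsi1 and PIP2-5. Lsi1 (LOC_Os02g51110), the channel through which silicic acid enters the root, had 523, 212, 262 and 617 CPM in Bala and 198, 265, 100 and 124 CPM in Sarali. The groups overlapped, with Sarali replicate 2 above Bala replicates 2 and 3 (1.23 ± 0.49, unadjusted p = 0.0203, adjusted p = 0.113). PIP2-5, a plasma membrane water channel, had 62.2, 14.8, 20.8 and 55.3 CPM in Bala and 15.5, 26.8, 3.58 and 3.37 CPM in Sarali (1.63 ± 0.65, adjusted p = 0.118, and 2.34 with an adjusted p of 0.0375 without Sarali replicate 2). It neighbours PIP2-4 and PIP2-1 on chromosome 7, with which it may share reads. Channels of the tonoplast, the membrane of the vacuole, overlapped widely. TIP2-2 had 220, 748, 895 and 761 CPM in Bala and 998, 1080, 1390 and 590 CPM in Sarali (−0.63 ± 0.56, adjusted p = 0.529). TIP1-1 had 293, 790, 748 and 707 CPM in Bala and 866, 955, 864 and 527 CPM in Sarali (−0.34 ± 0.56, adjusted p = 0.769), and TIP1-2 averaged 36.0 ± 15 against 49.1 ± 20.5 CPM (adjusted p = 0.539). Bala replicate 1 was the lowest of its group in TIP2-2 and TIP1-1 and the highest in PIP2-5 and PIP1-3. PIP1-3 spanned 165 to 694 CPM in Bala and 96.8 to 621 CPM in Sarali (0.64 ± 0.67), and PIP1-1 255 to 591 CPM over the 8 libraries (0.41 ± 0.3, adjusted p = 0.416). Standard errors of the log2 fold change ran from 0.14 for SIP1-1 to 0.75 for Lsi6, which limits the differences that could be detected.

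Lsi2 (LOC_Os03g01700), the exporter that passes silicic acid on towards the xylem, was the 1 called of 3 silicon transporters (33.3%, against 11.4% of all genes). It had 442, 124, 212 and 546 CPM in Bala and 95.8, 167, 35.7 and 32.6 CPM in Sarali, with Bala replicate 2 below Sarali replicate 2 (2.00 ± 0.64, adjusted p = 0.0496). That call was lost with the replicate number as a block (0.0985), once the ribosomal RNA share entered as covariate (0.167), in the fit of the 8 libraries alone (0.0667), and without Bala replicate 1 (0.111), 3 (0.0544) or 4 (0.159) or Sarali replicate 1 (0.0883), 3 (0.123) or 4 (0.141). Without Sarali replicate 2 it stood at 2.60 (0.0219). Of 56 genes of iron and metal transport, 5 were higher and 5 lower in Bala (17.9% called, against 11.4% of all genes). Of these 10 calls, 0 held in every fit without a single library. The number higher was 1 without Bala replicate 1 and 0 without Bala replicate 4 or Sarali replicate 1, 3 or 4. The number lower was 1 without Bala replicate 1, 2 without Bala replicate 3 or Sarali replicate 1 or 4, and 0 without Bala replicate 4. MTP4, a vacuolar metal carrier family member, had 6.16, 7.89, 9.35 and 5.77 CPM in Bala and 14.4, 12.2, 16.6 and 15.4 CPM in Sarali, apart in all libraries (−1.0 ± 0.26, adjusted p = 0.0142, 0.0501 without Bala replicate 1 and 0.0509 without Bala replicate 4).

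Of 18 genes of nitrogen uptake and assimilation, 2 were higher in Bala and 0 lower (11.1% called, near the 11.4% of all genes). DESeq2 also called 0 lower, and 3 in either direction had an unadjusted p below 0.05 in the edgeR fit. GLN1-2, a cytosolic glutamine synthetase that takes ammonium into amino acids in roots, had 43.9, 29.2, 34.7 and 104 CPM in Bala and 16.3, 16.9, 9.48 and 9.42 CPM in Sarali (2.02 ± 0.49, adjusted p = 0.00952). Bala replicate 4 was the highest by far, and without it the fold change was 1.46 (adjusted p = 0.0594); the call was also lost once the ribosomal RNA share entered as covariate (0.0728). The number called in the list was 0 without Bala replicate 4 and 1 without Bala replicate 1 or Sarali replicate 1, 3 or 4. Of 61 genes of potassium and sodium transport and its kinases, 3 were higher and 5 lower (13.1% called, near the 11.4% of all genes). HKT2;1, a root sodium carrier active when potassium is scarce, had 0.259, 0, 0 and 0 CPM in Bala and 2.9, 0.979, 3.29 and 4.07 CPM in Sarali (−5.27 ± 0.98, adjusted p = 0.00108, −9.44 without Bala replicate 1 and −4.67 without Bala replicate 2). CIPK24, the kinase known as SOS2 that activates sodium export, had 70, 58.5, 61 and 64.5 CPM in Bala and 38.2, 33.3, 38.5 and 38.7 CPM in Sarali, with a narrow spread in both (0.77 ± 0.14, adjusted p = 0.0007). CIPK33 of the same kinase family was lower, at 16.1 ± 2.87 against 28.3 ± 3.61 CPM (−0.81, adjusted p = 0.0104). These 3 calls held without any single library, while the number higher was 1 without Bala replicate 4 and the number lower was 2 without Bala replicate 3 or 4 or Sarali replicate 1 or 4. Of 22 phosphate genes 0 were called, against 11.4% of all genes. An unadjusted p below 0.05 was found in 3 of them, and DESeq2 called 1 lower. Without Bala replicate 2, 2 were lower.

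All 6 germin-like proteins, secreted proteins of the wall, had a positive log2 fold change, with a median of 1.45. Of the 6, 3 were called higher (50%, against 5.84% of all genes), and 2 of these 3 calls held without any single library. GER1 and GER3 lie with GER2 and GER6 in a cluster on chromosome 8. GER1 had 30.5, 8.67, 93.6 and 104 CPM in Bala and 3.85, 12.6, 9.98 and 2.35 CPM in Sarali, with Bala replicate 2 inside the Sarali range (3.04 ± 0.7, adjusted p = 0.00686, and 0.282 without Bala replicates 3 and 4). GER3 had 1.17, 1.08, 2.93 and 1.28 CPM in Bala and at most 0.14 CPM in Sarali (5.28 ± 0.96, adjusted p = 0.000898, and 6.71 without Sarali replicate 2). Of 15 genes of low oxygen response 3 were higher and 0 lower (20% called, against 11.4% of all genes). DESeq2 also called 0 lower, and 5 in either direction had an unadjusted p below 0.05 in the edgeR fit. SUS4, a sucrose synthase that splits sucrose for energy and wall synthesis, had 13.2, 18.8, 59 and 39.6 CPM in Bala and 3.31, 5.78, 6.61 and 6.78 CPM in Sarali. The groups were apart (2.54 ± 0.53, adjusted p = 0.00323), but without Bala replicates 3 and 4 the call ended (1.51, 0.126). Without Bala replicate 4 alone, 1 gene of the list was called.

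Of 59 redox genes 6 were higher in Bala and 0 lower, a share of 10.2% against 11.4% of all genes, with a median log2 fold change of −0.03 (1 lower by DESeq2, 13 in either direction at an unadjusted p below 0.05). OsTrxh1, a thioredoxin of the h type, had 337, 178, 264 and 416 CPM in Bala and 136, 148, 56.6 and 74.5 CPM in Sarali (1.53 ± 0.31, adjusted p = 0.0023). GSTU6, a glutathione S-transferase, had 7.39, 7.89, 29.8 and 14.9 CPM in Bala and stayed between 2.62 and 3.22 CPM in Sarali (2.32 ± 0.37, adjusted p = 0.000212, and 1.73 without Bala replicate 3). APX5, an ascorbate peroxidase that removes hydrogen peroxide, averaged 2.77 ± 1.09 against 0.0778 ± 0.0787 CPM (5.18, adjusted p = 0.00371, and 5.87 without Sarali replicate 2). Without Bala replicate 4 the list had 3 calls. Of 27 defence genes 6 were higher and 1 lower (25.9% called, against 11.4% of all genes). Cht2, a chitinase, had 7.2, 6.38, 17.3 and 14 CPM in Bala and 0.642, 1.17, 1.87 and 0.843 CPM in Sarali (3.31 ± 0.6, adjusted p = 0.000823). Rcb4, which the reference table lists as a chitinase, averaged 7.32 ± 4.4 against 1.2 ± 0.703 CPM (2.58, adjusted p = 0.000948). PIK6-NP, from the Pik group of blast resistance genes, averaged 3.2 ± 1.87 against 1.11 ± 0.275 CPM (1.53, adjusted p = 0.00606, and 0.0721 in the fit of the 8 libraries alone). NH3, a relative of the salicylate response gene NPR1, averaged 12.3 ± 2.04 against 5.73 ± 1.82 CPM (1.09, adjusted p = 0.0113, and 0.135 without Bala replicates 3 and 4). TFIIAy, the transcription factor subunit whose alleles include the bacterial blight gene xa5, was lower at 58.8 ± 2.86 against 87.2 ± 8.65 CPM (−0.57, adjusted p = 0.00474). These 5 calls held without any single library.

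Of 40 genes of drought and abscisic acid response 2 were higher, among them OsBURP02, and 1 was lower. The share called, 7.5%, was below the 11.4% of all genes. OsBURP02 alone was higher without any single library except Bala replicate 2 or Sarali replicate 1 or 2, and none was lower without Bala replicate 3 or 4 or Sarali replicate 1 or 4. Of 29 heat shock genes 2 were higher and 1 lower (10.3% called, near the 11.4% of all genes). The number higher was 1 without Bala replicate 1, 3 or 4 or Sarali replicate 1, 2 or 3, and the number lower was 0 without Bala replicate 1 or 3 or Sarali replicate 1 or 4. Ribosomal protein genes numbered 32 with 0 called (DESeq2 also 0, and 1 with an unadjusted p below 0.05). The 9 genes of diterpenoid phytoalexin synthesis likewise had 0 (DESeq2 0, and 1 with an unadjusted p below 0.05). Both compare with 11.4% of all genes called, a share that leaves few calls to find in lists this short. Other lists with at most 1 call in a direction, leaving aside silicon transporters and cell type markers, were the Casparian strip family (1 higher of 23, 4.35%), the cell cycle (1 higher and 1 lower of 47, 4.26%), sugar transport (1 higher of 30, 3.33%) and ABCG transporters (1 of each of 10, 20%). These shares compare with 11.4% of all genes, and none of these 6 calls held in every fit without a single library. The Casparian strip call was OsCASPL1D1, with 2.66, 0.651, 1.9 and 8.08 CPM in Bala and 0.565, 0.326, 0.208 and 0.22 CPM in Sarali (3.25 ± 0.81, adjusted p = 0.0121; 2.34 and 0.073 without Bala replicate 4). It was also lost once the ribosomal RNA share entered as covariate (0.0666).

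**Figure D3:**
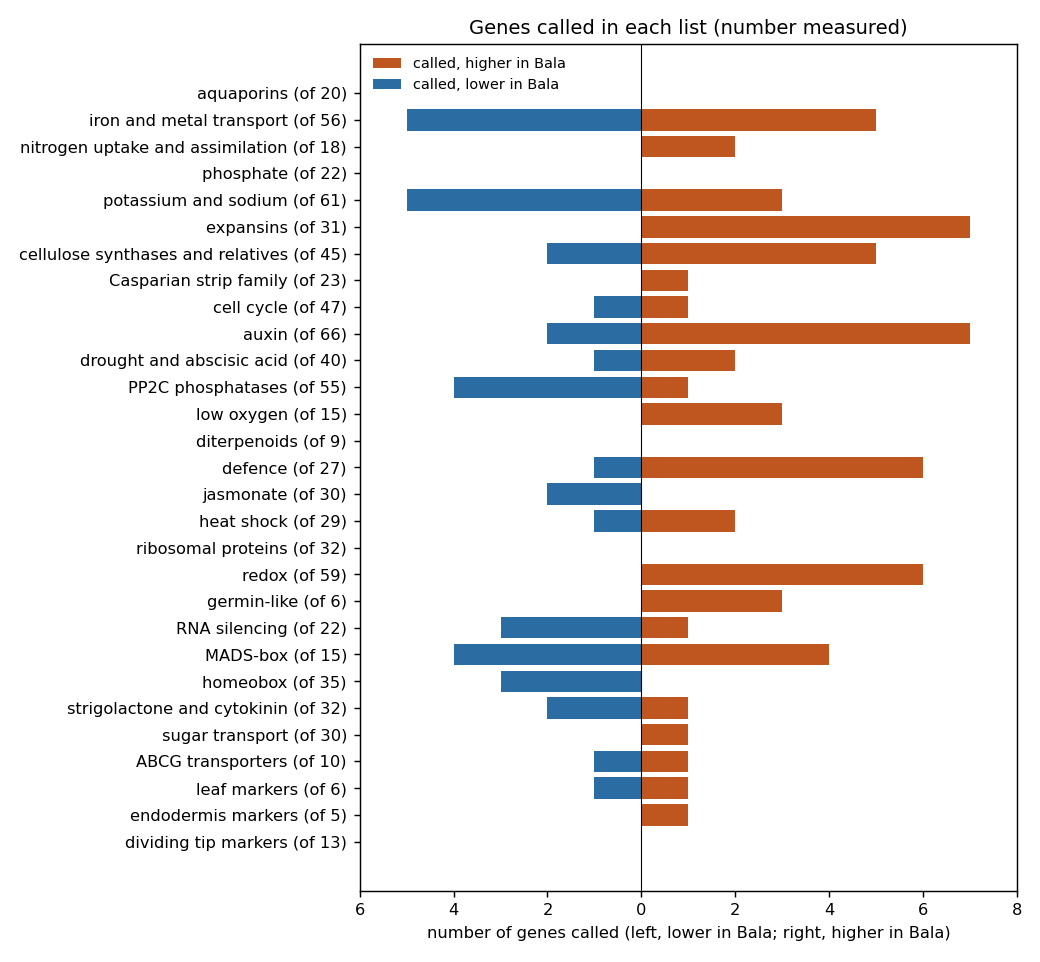
Number of genes called higher (orange, right) and lower (blue, left) in Bala for each list of at least 5 measured genes, with the number measured in brackets. Expansins, redox, low oxygen and germin-like genes have calls on the higher side alone, MADS-box genes have 4 on each side, and aquaporins have 0.

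Markers of cell types were compared because a root sample can hold different shares of each, and in bulk tissue fewer cells of a type and less RNA per cell cannot be told apart. Of 6 leaf markers 1 was higher and 1 lower in Bala (33.3% called, against 11.4% of all genes). Their summed level ran from 170 to 273 CPM in Bala and from 57.2 to 263 CPM in Sarali. PPDKB, a pyruvate phosphate dikinase also present outside leaves, had 71.4, 68.2, 80.1 and 87.5 CPM in Bala and 38.4, 32.8, 14.6 and 23.5 CPM in Sarali (1.49 ± 0.23, adjusted p = 0.000145). PORB, an enzyme of chlorophyll synthesis, was at 0, 0.0434, 0.159 and 0 CPM in Bala and between 0.874 and 2.28 CPM in Sarali (−4.85 ± 0.94, adjusted p = 0.00166, and −6.0 without Bala replicate 3). Of 5 endodermis markers 1 was called, higher in Bala (20%, against 11.4% of all genes). The list had a median log2 fold change of 0.60 and summed levels of 29.1 to 62.3 CPM in Bala and 12.2 to 29.1 CPM in Sarali. That call was lost without Bala replicate 1 or 4 or Sarali replicate 4, and 2 were called without Bala replicate 3. The endodermis holds Lsi1 and Lsi2, and the part of its markers in their values was not tested. Of 13 markers of dividing root tips 0 were called, against 11.4% of all genes (DESeq2 also 0, and 1 with an unadjusted p below 0.05). Their summed levels were 262 to 294 CPM in Bala and 246 to 317 CPM in Sarali. The 3 xylem markers had 0 calls by either tool and 0 at an unadjusted p below 0.05. Their median log2 fold change was −0.42, with summed levels of 204 to 667 CPM in Bala and 429 to 707 CPM in Sarali. The single root hair marker measured had 0 calls by either tool and an unadjusted p below 0.05.

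Some called genes had hardly any reads in all libraries of a cultivar. There were 56 genes that averaged 5 CPM or more in Bala and had at most 3 counts in every Sarali library, and 54 with the reverse pattern. They were chosen by these values, so their difference is a description. None of the 110 has a gene name in the reference table, but few genes do: 2351 of the 21225 tested and 230 of the 2422 called. Of the 56, 42 had 0 counts in all Sarali libraries. LOC9269629 (LOC_Os01g71540, chromosome 1) had 54.9, 49.1, 65.9 and 75.4 CPM in Bala and 0 in Sarali, at least 2283-fold higher (3 counts over the group). LOC4326058, a neighbour of it, had 54.3, 48.4, 64.4 and 76.6 CPM, within 10% of the same counts in each library, so their reads cannot be told apart. LOC4351746 (LOC_Os12g10330, chromosome 12) had 32.2, 46.3, 44.5 and 44.5 CPM in Bala and 0 in Sarali, at least 1560-fold higher. These unnamed genes were well covered in every Bala library, including replicate 4 with the fewest reads.

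Of the 54 genes near 0 in Bala, 24 had 0 counts in all its libraries. LOC4328180 (LOC_Os02g03640, chromosome 2) had 13.1, 40.8, 33 and 22 CPM in Sarali, at least 534-fold more than in Bala. LOC9269970 on chromosome 1 had 26.6, 23.6, 26.7 and 21.6 CPM in Sarali, at least 483-fold more. LOC107278387 on chromosome 4 had 16.8, 15.2, 18.3 and 21.4 CPM, at least 351-fold more, and its adjusted p of 0.00816 became 0.0593 without Bala replicates 3 and 4. The other cultivars placed these genes as follows. Of the 56 near 0 in Sarali, 32 also had at most 3 counts in every Moddai Karuppan library and 36 in every Niyan Wee library. In Azucena this held for 1. Means of at least 5 CPM were found for 11, 8 and 31 in these cultivars in turn. A gene left the first count if any single library passed 3 counts. In Azucena, LOC9266639 ran from 0 to 2.65 CPM (mean 0.717) and LOC4344884 from 0 to 3.43 CPM (mean 0.968). The cutoff of 3 is in raw counts, so it is stricter in deeper libraries. Counts outside ribosomal RNA numbered 3813615 in Bala replicate 4 and 28063068 in Niyan Wee replicate 1. Numbers of genes near 0 are therefore not on an equal footing between cultivars, including the 56 and the 54. Of the 54 near 0 in Bala, 12 had at most 3 counts in every Moddai Karuppan library. In Niyan Wee this held for 8 and in Azucena for 7. Means of at least 5 CPM were found in these cultivars for 29, 28 and 17. Some of these means cover libraries at 0. LOC107278387 ran from 0 to 16.3 CPM in Niyan Wee (mean 7.23). LOC9268275 ran from 0 to 23.9 CPM there and from 0 to 13.4 CPM in Moddai Karuppan. Such spread also enters the fit of all 20 libraries.

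**Figure D4:**
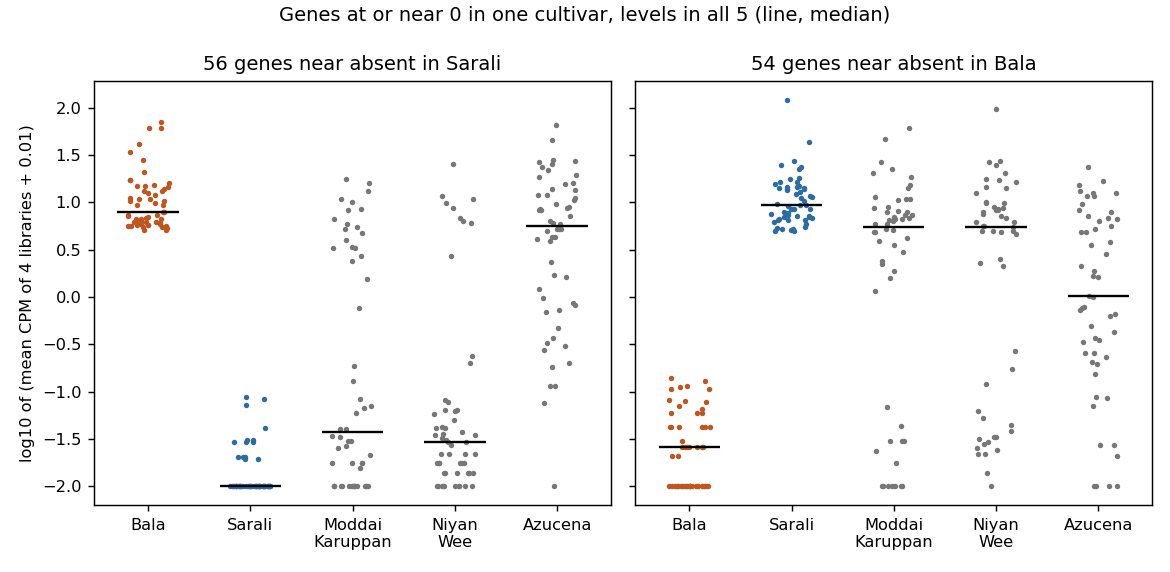
Mean CPM (log10 after adding 0.01) in each of the 5 cultivars for the 56 genes near 0 in Sarali (left) and the 54 near 0 in Bala (right), 1 point per gene and a line at the median. The genes near 0 in Sarali are mostly high in Azucena and fall into a high and a low set in Moddai Karuppan and Niyan Wee, while most of those near 0 in Bala are high in Moddai Karuppan and Niyan Wee.

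The share of genes called varied along the genome. It was highest on chromosome 11, where 103 genes were higher and 95 lower of 1165 tested (17.0%), followed by chromosome 6 with 14.1% and chromosome 4 with 13.8%, and lowest on chromosomes 2, 3 and 5 with 8.29%, 8.72% and 9.09%. Neighbouring genes called in the same direction formed 56 runs of at least 3 genes, 32 higher and 24 lower in Bala, with 193 genes or 7.97% of all called. The longest run held 7 genes higher in Bala on chromosome 1, from LOC9269629 to LOC4326061. Its last gene averaged 195 ± 20.4 CPM in Bala and 0.053 ± 0.0898 CPM in Sarali (11301 and 5 counts in all), and 4 of the 7 had 0 counts in Sarali. In this run LOC4326056 and LOC107276921 had the same 318 counts in Bala, so they too cannot be told apart. The longest run lower in Bala held 6 genes on chromosome 1, from OsPP2C05 to LOC4324561, of which LOC4325852 and LOC9269668 had 0 counts in Bala and averaged 2.48 ± 0.382 and 5.05 ± 1.19 CPM in Sarali. The end gene LOC4324561 had 11 ± 3.33 against 18.6 ± 5.05 CPM (−0.76, adjusted p = 0.0433). Runs of 5 genes lay on chromosome 12 (LOC112937435 to LOC112937411) and chromosome 6 (LOC4341544 to LOC4341547) on the higher side, and on chromosome 1 (LOC9272373 to LOC4326867) and chromosome 9 (LOC9268191 to LOC4346690) on the lower. In the last of these, LOC4346689 averaged 19.2 ± 3.81 CPM in Sarali against 0.0974 ± 0.124 CPM in Bala. Gene order is that of the reference assembly, and overlapping or copied genes in a run can count the same reads.

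**Figure D5:**
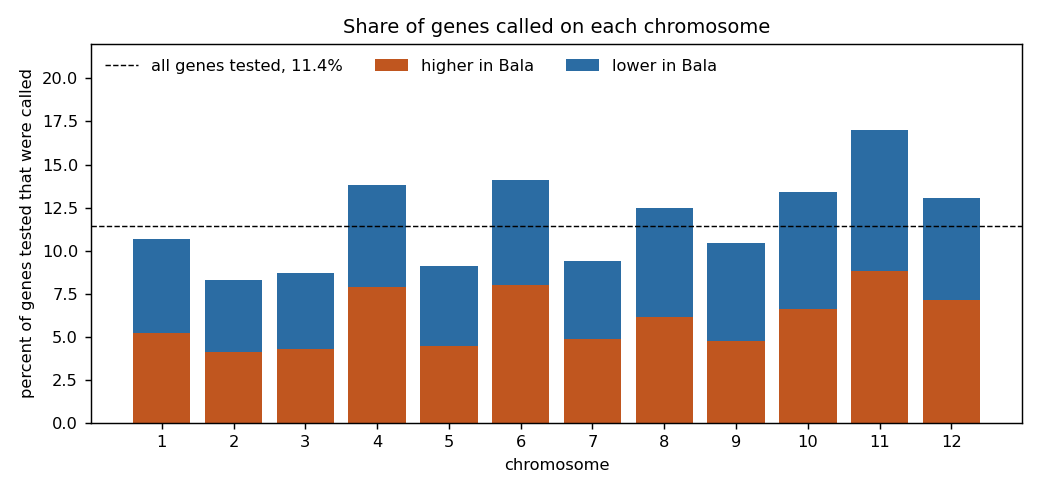
Percent of the genes tested on each of the 12 chromosomes that were called higher (orange) or lower (blue) in Bala, with a dashed line at the 11.4% of all genes. Chromosome 11 stands highest at 17.0% and chromosome 2 lowest at 8.29%.

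Long non-coding RNA genes and protein-coding genes were counted apart. Of 1043 long non-coding RNA genes tested, 97 were higher and 181 lower in Bala (26.7% called), whereas of 19269 protein-coding genes 1063 were higher and 888 lower (10.1%). The median level was 1.95 against 9.03 CPM, and between 1 and 10 CPM the shares were 31.2% of 581 and 11.2% of 8386. Without a single library, 82 to 96 long non-coding RNA genes were higher and 139 to 199 lower. Without Bala replicates 3 and 4 together the number lower was 107. The higher protein-coding genes numbered 692 without Bala replicate 4 and 702 without Sarali replicate 4. Of 241 pseudogenes 13 were higher and 33 lower (19.1%). These shares were not tested against each other, and counting was not stated to use strand, so reads of an antisense gene and its partner cannot be told apart.

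Described above were 66 called genes, not counting members of runs given for their place alone. Of these, 62 kept their call in each of the 8 fits that left out a single library. The text named mainly genes with that property, so this number follows from the choice. Under every one of the 22 alternatives 27 of the 66 kept their call. All 66 had the same direction in both pools, which were both part of the fit that called them. Within pool 1, 38 of the 66 were called, and 40 within pool 2. Of all 2422 called genes 1369 (56.5%) kept their call in each of the 8 fits without a single library, and 444 under every alternative.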

How the data were processed

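Root RNA was sequenced with a stranded total RNA kit that depletes ribosomal RNA, per the labels' protocols; a second label speaks of polyadenylated RNA. The submitters' processing notes list HISAT2, edgeR 3.36.0 and IRGSP-1.0 without their roles, and no source used here names the counting tool or its handling of shared reads. Expected counts, as the authors deposited them, were read from 1 table; 7.58% of values were not whole, and every gene in it reached 1 CPM in 3 libraries. Reads of all cultivars were set against a single genome, so a gene missing from a cultivar, one too different from the reference and one not transcribed cannot be told apart.

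The design had assumed raw counts, so values were rounded. Of 21237 genes, 12 were removed by filterByExpr (minimum count 10); 2 rows without a gene held no counts. All 20 libraries entered 1 edgeR 4.0.16 quasi-likelihood fit (R 4.3.3, TMM scaling, 1 mean per cultivar, Benjamini-Hochberg threshold of 0.05); the code was first tested on simulated counts. The SE of a log2 fold change was its absolute value divided by the square root of the quasi-likelihood F statistic. It was therefore derived from the test and not estimated directly. Single values used exact permutation tests, and bounds against 0 cover counting error only. Alternatives included DESeq2 1.42.0, RLE scaling, no filter or a minimum of 50, the 8 libraries alone, each pool, covariates, thinned counts, and left-out libraries. The tag naming replicate numbers calls them batch replicates, so a fit with that number as a block was run; same-numbered Bala and Sarali libraries had correlated deviations of 0.394, −0.359, 0.491 and −0.34 over 9446 genes.

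Names, biotypes and gene order come from a reference table of assembly ASM3414082v1 (20839 rows matched), which is another build than IRGSP-1.0, and coordinates were left out. The 32 lists are patterns on gene names, from which chance matches of unrelated aliases were dropped, and 6 of them (PP2C, jasmonate, homeobox, cytokinin and strigolactone, sugar transport, ABCG) were added late. Members and lists were chosen with earlier results of these data known. Eligible to be named were all aquaporins, in other lists the called members (up to 4 of smallest p in each direction), among named genes with no overlap the 12 highest and 12 lowest fold changes and 8 smallest p in each direction, the 3 longest runs in each direction and the 3 highest and 3 lowest unnamed genes; from these the text names mainly genes whose call held without any single library.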

Additional observations from a re-analysis of the deposited data

Results flagged for a closer look

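In groups of 4 libraries, a value was picked out when its gap to the nearest other value took up more of the group's range than Dixon's critical value for 4 samples, which chance gives in about 1 group in 20. Of 148 groups examined (73 genes and the ribosomal RNA share in both cultivars), 9 were picked out, leaving aside groups in which no library reached 1 CPM, and none of their causes was tested. In Bala, TIP1-1 stood at 293 CPM in replicate 1 against 707 to 790 CPM in the others, and TIP1-2 at 13.5 CPM in replicate 2 against 42.1 to 44.9 CPM. CIPK33 (11.9 against 17.2 to 18 CPM) and LOC4351746 (32.2 against 44.5 to 46.3 CPM) were low in Bala replicate 1, CYP714C2 was low in Bala replicate 4 (2.44 against 4.36 to 4.54 CPM), and GER3 was high in Bala replicate 3 (2.93 against 1.08 to 1.28 CPM). In Sarali, CIPK24 was low in replicate 2 (33.3 against 38.2 to 38.7 CPM), GLU3 high in replicate 1 (20.3 against 10 to 11.5 CPM) and OrysaZxb low in replicate 4 (0.0733 against 0.976 to 1.12 CPM).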

How the results depend on the processing

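The number of genes called (2422, with 1239 higher and 1183 lower in Bala) stayed within 1.5 times except where libraries were left out in number: 810 (409 higher, 401 lower) in pool 1 alone, 1213 (633, 580) in pool 2 alone and 1329 (679, 650) without Bala replicates 3 and 4, all fits of fewer samples. Leaving out single libraries gave 1701 to 2945 genes, 838 to 1427 higher and 858 to 1518 lower. None of the 2422 genes was called in the other direction under any of the 22 alternatives. With the replicate block 2255 were called (1117 higher, 1138 lower), and of the genes named only Lsi2 lost its call there. The ribosomal RNA difference was 13.0 to 24.2 points without single libraries. Signs turned for 3 aquaporins, none of them called: TIP1-1 (0.055 in pool 2 alone), PIP1-1 (−0.056) and PIP1-3 (−0.11) in pool 1 alone. DESeq2 called 3209 genes, among them 2407 of the 2422. Depth limits Bala most: replicate 4 held 3813615 counts outside ribosomal RNA, so genes near 1 CPM rest on few reads there.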
